A study of Mus musculus with 12 samples.

Results

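This account concerns 48 genes of the cell cycle and of DNA replication in a mouse kidney cell line, out of 27179 genes in the deposited table. They were chosen by name: the Entrez identifiers of the table were matched to mouse gene symbols, and each of the 48 symbols was found. By role they comprise 11 genes of replication licensing and the replicative helicase, 4 of the replication clamp and nucleotide supply, 10 G1 cyclins, kinases and inhibitors, 4 transcription factors, 4 genes of the A and B cyclins and Cdk1, and 15 genes of mitosis. The first pair of groups are called the replication members (15 genes) and the last pair the mitosis and G2 members (19 genes).

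The cells were mIMCD3, an established line of mouse kidney cells from the inner medullary collecting duct. Poly(A) RNA was sequenced from 12 libraries in 4 groups of 3. The control group carries wild type Actr3 (line Control 1), Actr3 KO is an Actr3 knockout line, dKO is a line with knockouts of both Actr3 and Ift88, and the fourth group is the same Actr3 KO line treated with ciliobrevin D, which inhibits the motor dynein, at 0.5 µM. Actr3 encodes a core subunit of the Arp2/3 actin nucleator, and Ift88 a protein of the transport system that builds cilia. In every group the cells reached confluence over 48 h with 10% fetal calf serum, and serum was then withdrawn for 24 h. Ciliobrevin D or its solvent was in the starvation medium. Each genotype is 1 line, so genotype and line cannot be told apart. Separate cultures are not stated for libraries of 1 group; p-values therefore measure only how far these libraries scatter, and that scatter may be technical. One control column bears the name of another control line, matches no sample title and entered the control group unnumbered, and no column bears the name of control replicate 2. The unnumbered library may come from that other line.

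A cell enters the division cycle when D cyclins with CDK4 or CDK6, and then E cyclins with CDK2, phosphorylate the RB proteins and release the E2F factors that transcribe genes of DNA replication. CDC6 and CDT1 load the MCM helicase on origins in G1, and the helicase is started in S phase with the help of MCM10 and the GINS complex. Genes of G2 and mitosis are transcribed later, by B-MYB, FOXM1 and the MuvB complex, largely through paired CCAAT boxes and the cell cycle homology region (CHR). Confluence and serum withdrawal are standard ways of holding epithelial cells outside the cycle. In a bulk culture, fewer cycling cells and less RNA per cycling cell cannot be told apart, and this holds for every value given here.

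The promoters of the replication and mitosis members differed in how often they held E2F-like and CHR words. Promoter windows (250 bases before to 50 after the start, RefSeq, GRCm38.p6) were at hand for 37 of the 48 members. Searched on either strand, the E2F-like words were TTCCCGC with its variant TTCGCGC, and TTGCCGC with its variant TTGGCGC. Such a word lay in 6 of 8 licensing and helicase promoters, against 1 of 12 mitosis promoters and 19.4% of the promoters of all genes tested. It also lay in 2 of 4 clamp and nucleotide promoters and in 2 of 3 promoters of the A and B cyclins and Cdk1. A CHR word (TTTGAA or, as its variant, TTCGAA, on either strand) lay in 10 of 12 mitosis promoters, in 2 of 8 licensing and helicase promoters and in none of the 7 promoters of G1 cyclins, kinases and inhibitors, against 16.0% of the promoters of all genes tested. A CCAAT box (either strand) lay in 11 of 12 mitosis promoters, against 42.9% for all genes tested. It was common among the other members too, with 6 of 8 licensing and helicase promoters and 28 of all 37 member promoters. Over all 32851 promoters of the table the shares were 9.57% for the E2F-like words, 19.2% for CHR and 37.4% for CCAAT. The last letters of ATTGG, the CCAAT box read on the other strand, can also be the start of TTGGCGC. A match describes the letters and was not tested as a site.

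The 150 bases just before the start of 5 members are printed below, 5′ to 3′ on the gene's strand, to show how the words lie in genes of each kind: Mcm6 and Cdc6 of licensing and the helicase, Cdk1 with all 3 kinds of word, and Cdc20 and Ube2c of mitosis. They are examples, chosen after their words were seen. Capitals mark the E2F-like, CCAAT and CHR words, and overlapping words run together.
Mcm6 (chr1:128359706-128359855, minus strand): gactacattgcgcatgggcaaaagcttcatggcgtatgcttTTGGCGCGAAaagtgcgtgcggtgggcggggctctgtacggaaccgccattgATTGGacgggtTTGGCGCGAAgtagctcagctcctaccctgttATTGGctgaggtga
Cdc6 (chr11:98908001-98908150, plus strand): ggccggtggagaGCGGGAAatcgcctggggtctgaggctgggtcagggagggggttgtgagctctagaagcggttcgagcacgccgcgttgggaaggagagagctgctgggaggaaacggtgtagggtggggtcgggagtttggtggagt
Cdk1 (chr10:69352913-69353062, minus strand): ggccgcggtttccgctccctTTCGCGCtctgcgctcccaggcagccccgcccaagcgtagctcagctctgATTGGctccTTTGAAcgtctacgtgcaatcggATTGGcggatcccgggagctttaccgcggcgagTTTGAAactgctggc
Cdc20 (chr4:118437344-118437493, minus strand): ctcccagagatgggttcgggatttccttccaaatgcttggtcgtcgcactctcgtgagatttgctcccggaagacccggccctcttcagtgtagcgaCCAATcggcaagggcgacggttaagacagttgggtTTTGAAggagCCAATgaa
Ube2c (chr2:164769779-164769928, plus strand): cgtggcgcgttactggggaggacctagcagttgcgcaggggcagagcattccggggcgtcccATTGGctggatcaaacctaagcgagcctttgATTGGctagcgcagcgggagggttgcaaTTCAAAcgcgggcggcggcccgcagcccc
In Mcm6, E2F-like words begin 109 and 106 bases before the start, and again 46 and 43 bases before it, so that each pair overlaps on opposite strands. In Cdc20 the CHR word stands 18 bases before the start, and in Ube2c 29 bases before it, in each case downstream of a CCAAT box. Cdk1 holds an E2F-like word 130 bases before the start and CHR words 71 and 15 bases before it.

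Recovered reads per library ranged from 28902562 to 38077987 and were highest in control (37001577 to 38077987). Across genes, which are not independent, the correlation of log2 values was 0.993 to 0.996 for libraries of 1 group and 0.942 to 0.974 for libraries of different groups. Actr3 had 8336 ± 293 normalized counts (mean ± SD, n = 3) in control, 1218 ± 111 in Actr3 KO, 1573 ± 180.2 after treatment and 871 ± 38.6 in dKO. Ift88 had 617 ± 34.2 in Actr3 KO and 604 ± 29.8 in dKO, a difference of -0.03 ± 0.07 (SE) on the log2 scale; a gene-wide count cannot reveal a short edit, so it checks nothing about that label. Of 13 kidney epithelium and collecting duct markers, Cdh16, Epcam, Krt8 and Pax8 were present in every library, whereas Aqp2, the vasopressin-regulated water channel that defines principal cells, was at most 1.86 and Gata3 between 15.3 and 86.4. The summed level of this list ran from 126791 to 135690.0 in control libraries, from 93089 to 100456 in Actr3 KO, 93145 to 97262 after treatment and 91099.6 to 99769.7 in dKO. Of 16 markers of leukocytes, endothelium, fibroblasts, podocytes, proximal tubule and thick limb, Lrp2 (5275 to 17066), Umod (92.2 to 511) and Cd68 (127 to 347) had the highest levels; Slc34a1 was 0 in every library and Adgre1 at most 1.11. Without Lrp2 the sum of this list ran from 721 to 859 in control libraries, from 692 to 716 in Actr3 KO, 611 to 637 after treatment and 367 to 388 in dKO. These marker levels differ between the groups, and their part in the results below was not tested.

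Values below are the deposited normalized counts, listed for replicates 1 and 3 and the unnumbered library in control and for replicates 1 to 3 elsewhere. Differences are log2 fold changes of value + 1 with their SE from limma, and a gene is said to have risen or fallen at a Benjamini-Hochberg adjusted p under 0.05 over 13939 genes. Most genes of the table pass that threshold, so counts of members are set against the share of all genes. Cyclin D2 (Ccnd2) was not tested: it had 1 read in 1 library of each group but control, where it had none. The other 47 had counts above 0 in every library and were tested. Compared per kilobase of the longest annotated transcript, the control means ran from 10901 normalized counts per kb for Pcna and 6586 for Mcm7 down to 221 for E2f2 and 101 for Cdk6.

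**Figure D1:**
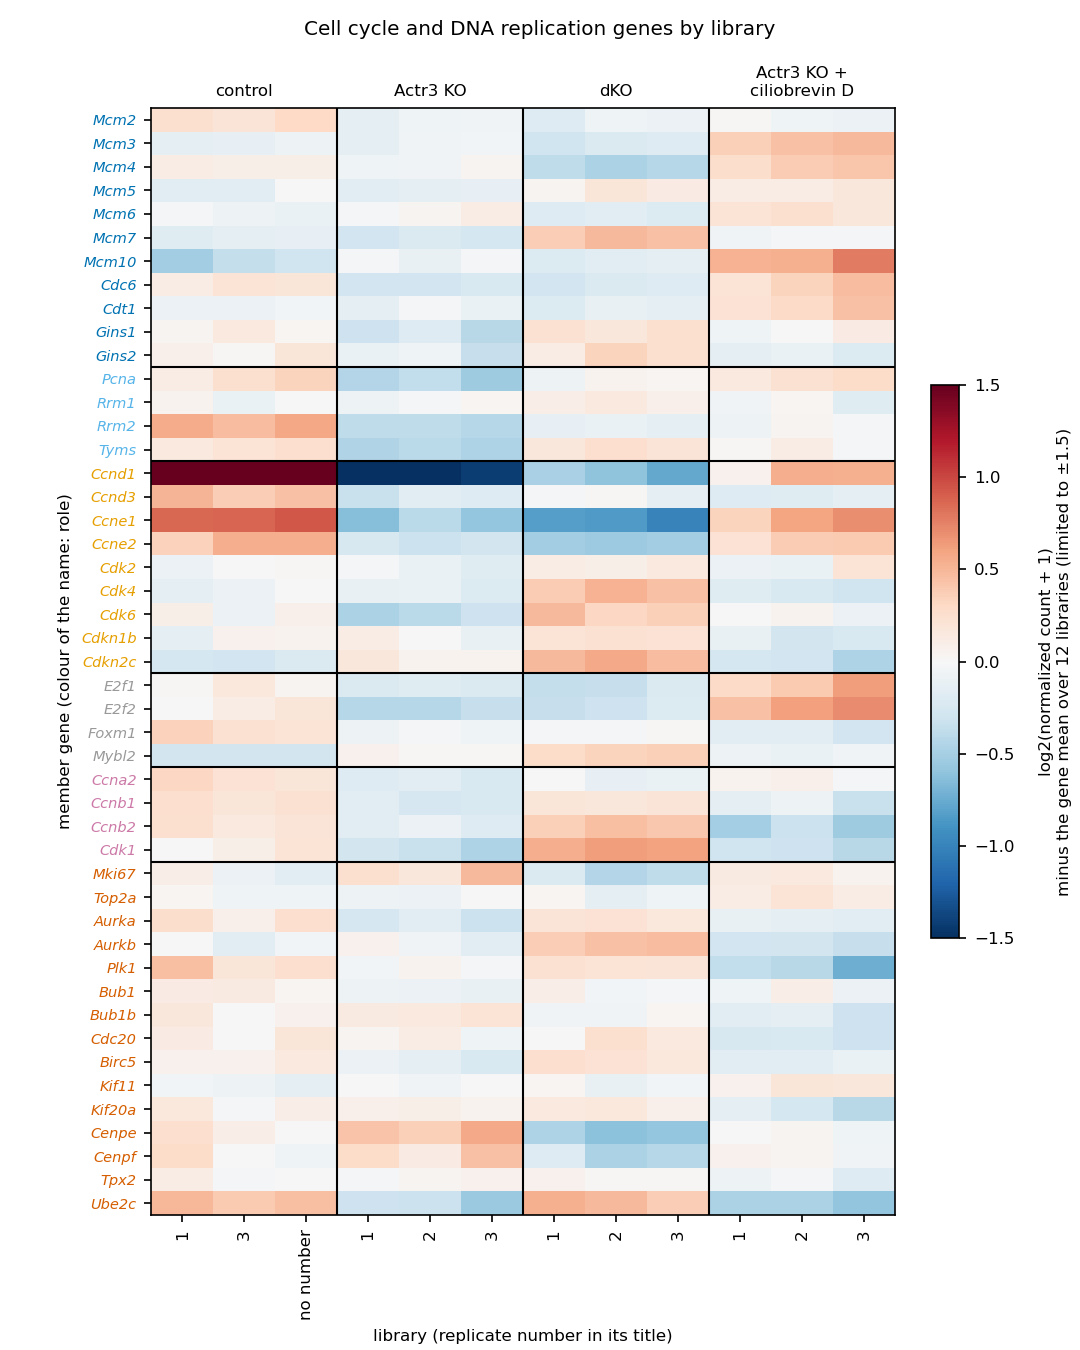
Each row is 1 of the 47 tested members, coloured by role, and each column 1 of 12 libraries; colour gives log2(normalized count + 1) minus the gene's mean over all libraries, limited to 1.5 either way. Ccnd1 and Ccne1 are high in the 3 control libraries, most replication rows at the top are high in the ciliobrevin D libraries, and Cdk1 and Mcm7 are high in dKO.

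The first comparison asked what the Actr3 KO line differed in from control. All 7 cyclins tested, Pcna, Rrm2 and Tyms were lower, among others: 24 of 47 members fell (51.1%, against 35.4% of all genes tested) and 6 rose (12.8%, against 34.4%). In either direction 69.8% of all genes were called. The median change of the members was -0.19 and that of all genes 0.00. At 1.5-fold or more, 8 members fell (17.0%, near the background of 15.3%) and none rose (background 15.1%). The 8 were Ccnd1, Ccnd3, Ccne1, Ccne2, Pcna, Rrm2, Tyms and Ube2c.

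The G1 cyclins Ccnd1 and Ccne1 had the largest decreases of the set. Cyclin D1 (Ccnd1), the partner of CDK4 and CDK6 that growth factors induce, had 1038, 983 and 1037 in control and 102, 82.8 and 107 in Actr3 KO. It fell by 3.38 on the log2 scale (SE 0.12, limma adjusted p = 3.32e-15), a 10.4-fold lower level. Cyclin E1 (Ccne1), the partner of CDK2 at the start of S phase, had 1652, 1665 and 1734 in control and 583, 686 and 606 in Actr3 KO (log2 fold change -1.43 ± 0.08, adjusted p = 3.14e-12). Its paralog Ccne2 had 907, 1040.4 and 1045 and then 604, 573 and 589 (-0.76 ± 0.07). In all these cyclins each Actr3 KO library lay below each control library. Ccnd3 (-0.67 ± 0.06) and Cdk6 (-0.42 ± 0.07) also fell, whereas Cdk2 (-0.08 ± 0.07) and Cdk4 (-0.07 ± 0.06) were not called. Of the inhibitors, Cdkn2c, which encodes the CDK4 and CDK6 inhibitor p18INK4c, rose from 1099, 1083 and 1141 to 1486, 1376 and 1378 (0.35 ± 0.06, adjusted p = 3.48e-05). Cdkn1b, which encodes p27KIP1, had 3475, 4012 and 3975 in control and 4166, 3839.8 and 3562 in Actr3 KO (0.01 ± 0.06, adjusted p = 0.86), with overlapping groups. The median of all genes on its chromosome, 6, was -0.42 in this comparison, and with chromosome medians removed Cdkn1b was called higher (0.42, adjusted p = 5.7e-06).

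Of the replication members, 7 of 15 fell (46.7%) and 1 rose (6.67%). Among the clamp and nucleotide genes 3 of 4 fell. Rrm2, the regulated subunit of ribonucleotide reductase, which makes deoxyribonucleotides, had 9367, 8711 and 9486 in control and 4877, 4889 and 4714 in Actr3 KO (-0.93 ± 0.05, adjusted p = 1.18e-12), while the large subunit Rrm1 was not called (-0.01 ± 0.06). Pcna, the sliding clamp of the DNA polymerases, had 15219, 16651 and 17774 and 10441, 10902 and 9806 (-0.67 ± 0.06, adjusted p = 6.09e-09). Thymidylate synthase (Tyms) fell by 0.64. Removing chromosome medians left 3 of these 4 clamp and nucleotide genes lower, 2 rather than 3 of them by 1.5-fold or more. The licensing and helicase group moved less. Of its 11 genes, Cdc6 (-0.43 ± 0.06), Gins1 (-0.38 ± 0.07), Mcm2 (-0.33 ± 0.05) and Gins2 (-0.26 ± 0.07) fell, and Mcm10 rose, from 2561, 2864 and 2985 to 3629, 3404 and 3610.2 (0.34 ± 0.07, adjusted p = 9.41e-05). The other subunits of the MCM ring, Mcm3 to Mcm7, lay between -0.12 and 0.11 and none was called. Mcm4 was called with TMM rescaling (-0.12, adjusted p = 0.0486), Mcm6 with DESeq2 (0.11, adjusted p = 0.027) and Mcm3 with quantile normalization (0.16, adjusted p = 0.00784), and Mcm7 with DESeq2 (-0.11, adjusted p = 0.0206). Mcm6 was also called with quantile normalization (0.23, limma adjusted p = 0.00016). Removing chromosome medians called Mcm4 lower (-0.18, limma adjusted p = 0.00739). The group again had 4 lower genes in that fit, so not all of the 4 named above stayed called.

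Among the transcription factors, E2f2 fell from 983, 1051 and 1104 to 723, 726 and 769 (-0.50 ± 0.07), E2f1 from 1937, 2148 and 1974 to 1659, 1697 and 1658 (-0.27 ± 0.07) and Foxm1 by 0.32. Mybl2, which encodes B-MYB, went the other way, from 2457, 2445 and 2456 to 3099.5, 3006 and 3009 (0.31 ± 0.05, adjusted p = 4.77e-06). The 3 Actr3 KO libraries lay above the 3 control libraries. With chromosome medians removed, 2 of these 4 factors fell and 1 rose, and Foxm1 was not called. All 4 genes of the A and B cyclins and Cdk1 fell, by similar amounts: Ccna2 -0.43, Ccnb1 -0.44, Ccnb2 -0.35 and Cdk1 -0.46 on the log2 scale. Cdk1, the kinase of mitotic entry, had 5456, 5754 and 6255 in control and 4486, 4308 and 3935 in Actr3 KO. Ccnb2 had 2298, 2153 and 2214 and 1721, 1819 and 1696.

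Of 15 genes of mitosis proper, 5 fell (33.3%, against 35.4% of all genes) and 3 rose (20.0%, against 34.4%), with a median of -0.01, so the share that fell was near that of all genes. Ube2c, the ubiquitin-conjugating enzyme of the anaphase-promoting complex, had 2835, 2637 and 2740.3 in control and 1619, 1604 and 1363 in Actr3 KO (-0.84 ± 0.07, adjusted p = 3.62e-10), and Aurka (-0.45 ± 0.06), Plk1 (-0.30 ± 0.08), Birc5 (-0.25 ± 0.05) and Bub1 (-0.19 ± 0.06) fell less. The 3 that rose were long transcripts. Cenpe, a kinesin of the kinetochore, had 8044, 7262 and 6726 in control and 9121, 8702 and 10011 in Actr3 KO (0.34 ± 0.07, adjusted p = 0.000105). Mki67, the proliferation antigen Ki-67 that coats mitotic chromosomes, had 24523, 21507 and 20440.1 and 26986, 25813 and 32014 (0.35 ± 0.08, adjusted p = 0.000696). Cenpf had 7619, 6319.8 and 5976 and 7569.5, 6814 and 8469.7 (0.20 ± 0.09, adjusted p = 0.0425), and its groups overlapped. The Cenpf call was lost without control replicate 3 (0.17, adjusted p = 0.131), without the unnumbered control library (0.13, adjusted p = 0.221), without Actr3 KO replicate 1 (0.20, adjusted p = 0.0776) and without Actr3 KO replicate 3 (0.12, adjusted p = 0.237). Top2a, the topoisomerase that untangles sister chromatids (20749, 19499.8 and 19488 against 19215, 19098 and 20252), the spindle motor Kif11 (7969, 7768 and 7477 against 8264, 7889 and 8238) and the checkpoint kinase Bub1b (4701, 4167 and 4336 against 4562, 4607 and 4787) were not called, with changes of -0.03 ± 0.06, 0.07 ± 0.05 and 0.08 ± 0.06.

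Transcript length moved with these differences over the whole table. From genes with a longest transcript of up to 1000 bases to those of over 8000 bases, the median log2 fold change of Actr3 KO against control went from -0.35 to 0.15 (Spearman rho 0.19 across 12657 genes, as a description). Across the 47 members rho was 0.35 and across the 15 mitosis members 0.74, on a single set of libraries. Cenpe (7910 bases), Mki67 (10061) and Cenpf (11130) were the longest mitosis members. With the trend on length removed from all genes, an alternative chosen after seeing the data, Cenpe was at 0.22 (adjusted p = 0.00586), Mki67 at 0.18 (adjusted p = 0.0577) and Cenpf at 0.01 (adjusted p = 0.933). The count of lower members was again 24 of 47, with 4 higher. Ube2c was at -0.78 (adjusted p = 1.41e-09).

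**Figure D2:**
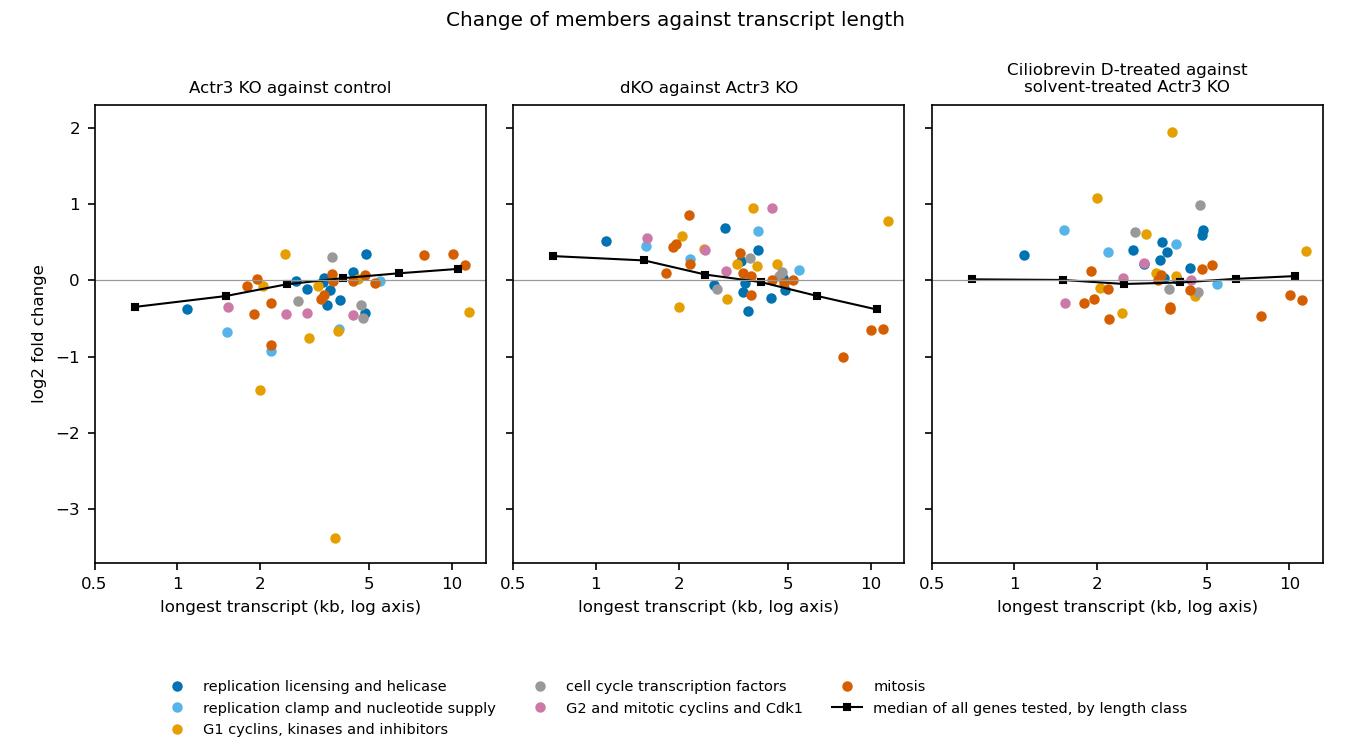
Log2 fold change of each tested member against its longest transcript in kb (log axis), coloured by role, for the first 3 comparisons; black squares join the medians of all genes tested in 6 length classes, drawn near the middle of each class. The black line rises from -0.35 to 0.15 in the first panel, falls from 0.32 to -0.38 in the second and stays near 0 in the third, and the 3 longest mitosis members (right-hand orange points) lie above 0 in the first panel and below it in the second.

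In the second comparison dKO was set against the Actr3 KO line, with which it shares 1 edited gene. The A, B and D cyclins tested, Cdk1, Cdk2, Cdk4 and Cdk6 were higher in dKO, and both E cyclins lower: 24 of 47 members rose (51.1%, against 32.5% of all genes tested) and 9 fell (19.1%, against 33.2%). Over all genes 65.7% were called. The median of the members was 0.13 and that of all genes -0.01. At 1.5-fold or more, 7 rose (14.9%, background 10.6%) and 3 fell (6.38%, background 14.9%). Removing chromosome medians gave 26 higher and 7 lower members, 3 and 2 of them at that size. Among Cdk2, Cdk4, Cdk6 and Ccnd3, a gene called higher here was called lower in that fit. This comparison and the first share the Actr3 KO libraries, and the values are given side by side without a test of their likeness.

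Among the A and B cyclins and Cdk1, all 4 rose. Cdk1 had 4486, 4308 and 3935 in Actr3 KO and 7927, 8374 and 8219 in dKO (0.95 ± 0.06, adjusted p = 1.21e-11), above each control library. Ccnb2 rose to 2491, 2654 and 2566 (0.56 ± 0.06), Ccnb1 by 0.39 and Ccna2 by 0.12. Cdk1 lies on chromosome 10, where the median of 655 genes was 0.40 in this comparison, and with chromosome medians removed its change was 0.52 (adjusted p = 1.61e-07). Against control, the Cdk1 change of 0.49 in dKO went to 0.11 with chromosome medians removed and was no longer called (adjusted p = 0.121).

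All 9 tested genes of the G1 group were called, 7 of them higher. Ccnd1 rose to 207, 191 and 169.8 (0.95 ± 0.12, adjusted p = 6.93e-07), with dKO libraries above all Actr3 KO libraries and far below control. Cdk6 (0.78 ± 0.07), Cdk4 (0.59 ± 0.06), Cdk2 (0.21 ± 0.07) and Ccnd3 (0.18 ± 0.06) rose too. After removal of chromosome medians all 9 G1 genes were still called, 6 higher and 3 lower. Those higher by 1.5-fold or more went from 3 to 1. A gene among Cdk6, Cdk4, Cdk2 and Ccnd3 was therefore called lower in that fit. Both inhibitors rose: Cdkn2c to 1854, 1967 and 1830.0 (0.41 ± 0.06) and Cdkn1b to 4417, 4520.1 and 4452 (0.21 ± 0.06). The E cyclins were the exception. Ccne1 fell further, to 512, 505 and 453 (-0.35 ± 0.08, adjusted p = 0.000885), and Ccne2 to 498, 491 and 496 (-0.25 ± 0.07, adjusted p = 0.00391). Their dKO libraries were the lowest of all 12.

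The subunits of the MCM ring, which work in equal numbers in a single complex, were measured in different directions. Mcm7 rose from 17646, 18538 and 18019 to 27876, 30235 and 29244 (0.69 ± 0.06, adjusted p = 5.70e-10) and Mcm5 by 0.25. Mcm4 fell from 13546, 13649.6 and 14603 to 10852, 10181 and 10532 (-0.40 ± 0.05, adjusted p = 1.36e-06), Mcm6 from 12650.3, 13254 and 13937 to 11282, 11463 and 11176 (-0.23 ± 0.05) and Mcm3 from 12459.6, 13382 and 13408 to 11263, 11941 and 12124 (-0.15 ± 0.06, adjusted p = 0.0201). Mcm2 was at -0.04 ± 0.05. For Mcm7, Mcm4, Mcm6 and Mcm3 the direction was that of the median of all genes on the same chromosome. The median of all genes was 0.39 on chromosome 5, which holds Mcm7, -0.41 on chromosome 16, which holds Mcm4, and -0.21 on chromosome 1, which holds Mcm3 and Mcm6. With chromosome medians removed, the differences were 0.28 for Mcm7 (adjusted p = 0.000157), 0.03 for Mcm4 (adjusted p = 0.655), 0.01 for Mcm6 (adjusted p = 0.926) and 0.09 for Mcm3 (adjusted p = 0.182), and no replication member was called lower. Leaving out Actr3 KO replicate 2 also ended the Mcm3 call (-0.14, adjusted p = 0.0707), as did leaving out Actr3 KO replicate 3 (-0.13, adjusted p = 0.0622) or dKO replicate 1 (-0.12, adjusted p = 0.0964). The exons of Mcm7 overlap those of Ap4m1 and Cops6 on the other strand, and the sources used here do not say if reads were counted by strand.

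The other replication members were higher in dKO or not called. Gins1 (0.52 ± 0.07), Gins2 (0.40 ± 0.07), Tyms (0.64 ± 0.05), Pcna (0.45 ± 0.06) and Rrm2 (0.27 ± 0.05) rose. After removal of chromosome medians all 4 clamp and nucleotide genes were called higher, by at most 0.50. Pcna had 13459.7, 14681 and 14463 and Rrm2 5846, 5923 and 5742 in dKO. Both stayed below each control library. Mcm10, with 3170.4, 3288 and 3298, was not called (-0.13 ± 0.07, adjusted p = 0.1), and neither were Cdc6 (0.03 ± 0.06), Cdt1 (-0.06 ± 0.06) and Rrm1 (0.13 ± 0.06). Of the transcription factors Mybl2 rose, to 3593, 3746 and 3797 (0.29 ± 0.05), and E2f1, E2f2 and Foxm1 were not called; E2f1 had 1495, 1509 and 1656 and E2f2 768, 789 and 844.

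Of the 15 mitosis members 5 rose (33.3%, against 32.5% of all genes) and 4 fell (26.7%, against 33.2%), shares near those of all genes. Ube2c rose to 2912, 2814 and 2585 (0.86 ± 0.07, adjusted p = 3.19e-10), and Aurkb (0.48 ± 0.06), Aurka (0.44 ± 0.06), Birc5 (0.36 ± 0.05) and Plk1 (0.21 ± 0.08) rose with it. Cenpe fell to 4903, 4399 and 4529 (-1.01 ± 0.07, adjusted p = 2.32e-11), Mki67 to 19647, 16837 and 17553 (-0.65 ± 0.08), Cenpf to 5489, 4523 and 4664 (-0.64 ± 0.09) and Bub1b to 4009.8, 4002 and 4242 (-0.19 ± 0.06). The dKO libraries of Cenpe, Mki67 and Cenpf were the lowest of all 12. For Cenpe and Mki67 the Actr3 KO libraries were the highest of all 12, and for Cenpf they overlapped those of another group. Length moved with the changes here as well: over all genes the median went from 0.32 for the shortest class to -0.38 for the longest (rho -0.31), and across the 15 mitosis members rho was -0.87. With the length trend removed, Cenpe was at -0.72, Mki67 at -0.28 and Cenpf at -0.24, each still called (adjusted p = 4.73e-09, 0.00522 and 0.0211), and Ube2c at 0.73. With chromosome medians removed, Cenpe was at -0.61, still the lowest of the mitosis members, of which 7 rose and 4 fell. Top2a (20751, 18469 and 19488) and Kif11 (8398, 7579.7 and 7960.0) were not called against Actr3 KO (0.00 ± 0.06 and -0.03 ± 0.05, 95% intervals -0.12 to 0.13 and -0.14 to 0.08).

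**Figure D3:**
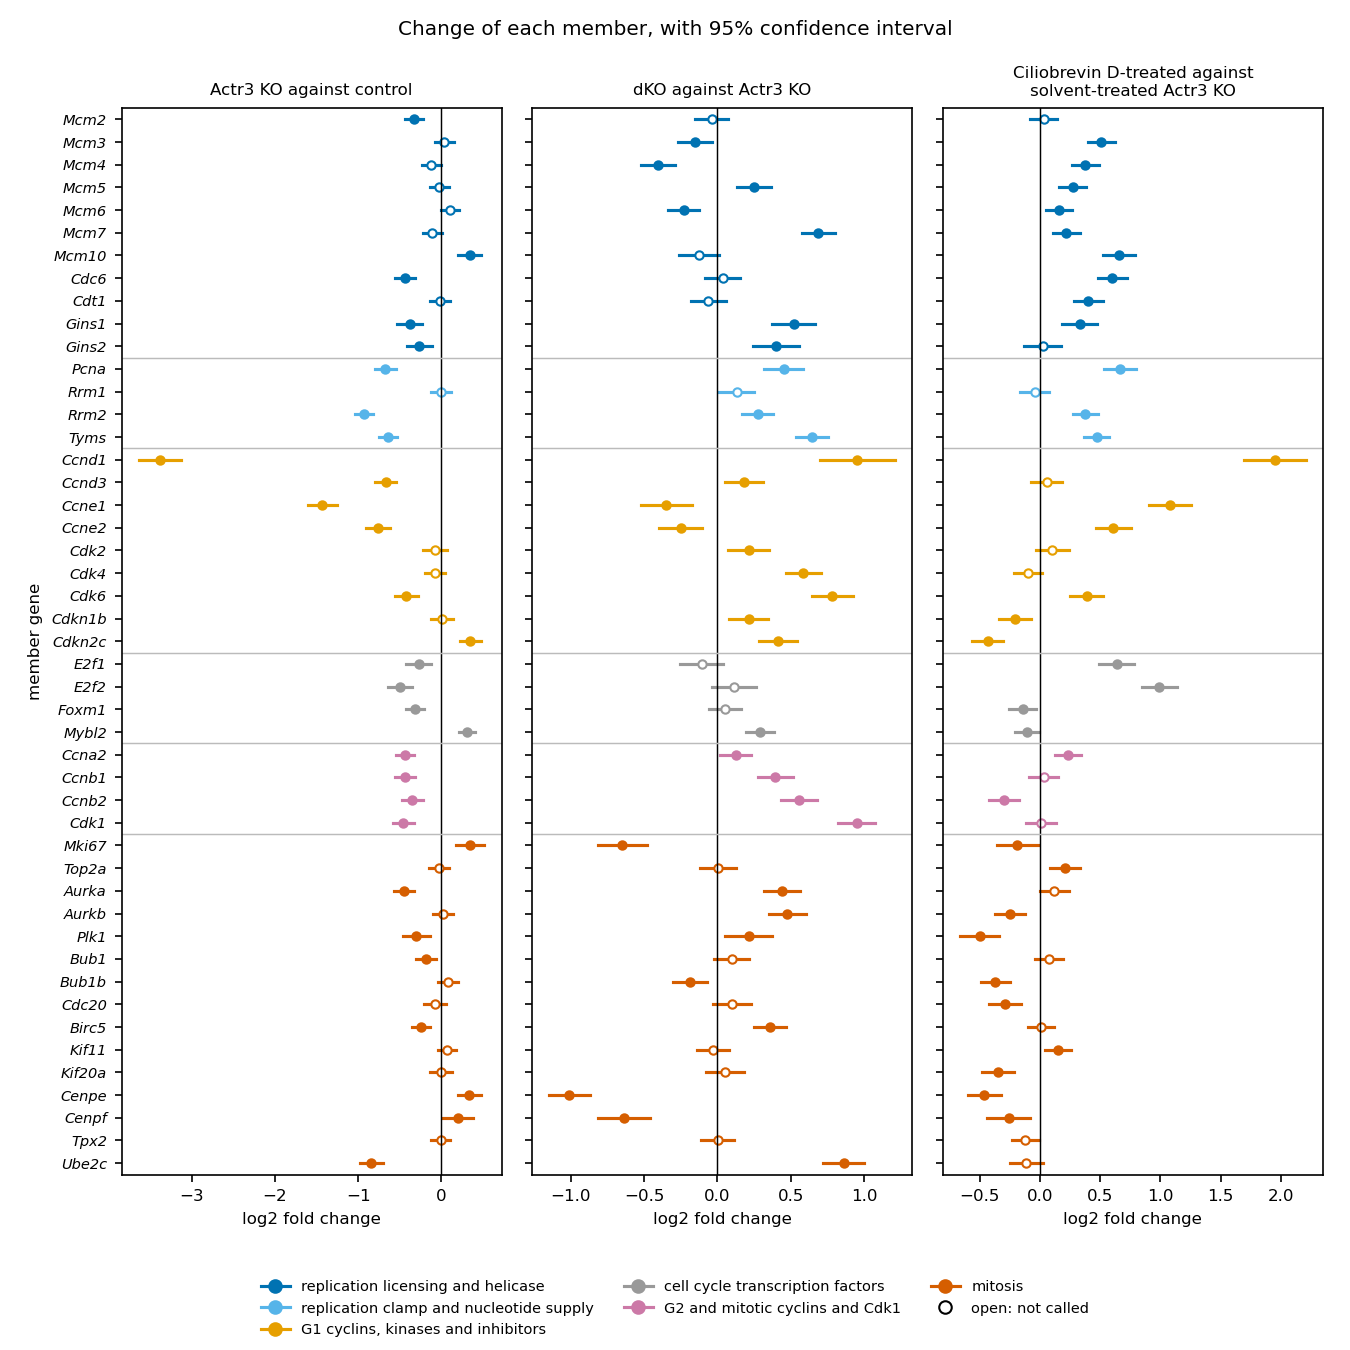
Log2 fold change of each tested member with its 95% confidence interval from limma, in 3 comparisons with separate axes; filled points were called at an adjusted p under 0.05 and open points were not. Ccnd1 at -3.38 lies farthest from 0, and in the third panel the licensing and helicase genes at the top lie right of 0 while most mitosis genes at the bottom lie left of it.

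In the third comparison, treated and solvent-treated cells of the Actr3 KO line were set against each other, with replication and mitosis read separately. Most replication members rose and most called mitosis and G2 members fell. Of 47 members 21 rose (44.7%, against 32.7% of all genes tested) and 13 fell (27.7%, against 32.9%), where 65.5% of all genes were called. Of the 15 replication members 12 rose (80.0%) and none fell, with a median of 0.38, against -0.02 for all genes. None was lower at an unadjusted limma p under 0.05 either (0 of 15), and the counts of lower replication members were 0 by edgeR and 0 by DESeq2. Of the 19 mitosis and G2 members 3 rose (15.8%) and 9 fell (47.4%), with a median of -0.12. At 1.5-fold or more, 8 members rose (17.0%, background 13.1%) and none fell (background 11.3%). The difference between the role groups was not itself tested. This comparison also shares the solvent-treated Actr3 KO libraries with those above.

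In the licensing and helicase group, 9 of 11 rose. Mcm10 had 5251, 5306 and 6268 with ciliobrevin D, against 3629, 3404 and 3610.2 with solvent (0.66 ± 0.07, adjusted p = 1.85e-08). Cdc6, the licensing ATPase whose promoter is printed above, rose by 0.60 (SE 0.06, adjusted p = 9.27e-09) and its partner Cdt1 by 0.40. In the MCM ring, Mcm3 reached 17742, 18762 and 19379.6 (0.51 ± 0.06), Mcm4 17041, 18426 and 18807 (0.38 ± 0.05), Mcm6 14794, 15170.5 and 14522 (0.16 ± 0.05) and Mcm7 20762, 21216 and 21082 (0.22 ± 0.06); Mcm5 rose by 0.27. These treated libraries lay above all solvent-treated ones. Mcm2 (0.03 ± 0.05, 95% interval -0.08 to 0.14) and Gins2 (0.02 ± 0.07, -0.13 to 0.18) were not called, and Gins1 rose (0.33 ± 0.07). The Mcm7 call was lost with chromosome medians removed (0.01, adjusted p = 0.831; the median of chromosome 5 was 0.22), and the Mcm6 call when Actr3 KO replicate 1 was left out (0.13, adjusted p = 0.0571).

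Of the clamp and nucleotide genes 3 of 4 rose. Pcna had 15687, 16516 and 17089 (0.66 ± 0.06, adjusted p = 9.27e-09), Rrm2 6023, 6528 and 6239.6 (0.38 ± 0.05) and Tyms rose by 0.47, whereas Rrm1 was at -0.04 ± 0.06. Pcna lay within the range of control libraries after treatment and Rrm2 did not reach it.

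Of the 9 tested G1 genes 4 rose and 2 fell, and of the 4 transcription factors 2 rose and 2 fell. Ccnd1 had 302, 425 and 419.8 (1.95 ± 0.12, adjusted p = 1.52e-11), 3.87-fold higher than with solvent and still below control. Ccne1 had 1143, 1367 and 1467 (1.08 ± 0.08, adjusted p = 3.21e-10) and Ccne2 833, 927 and 939.6 (0.61 ± 0.07, adjusted p = 1.56e-07). E2f2 had 1327, 1497 and 1602 (0.99 ± 0.07, adjusted p = 1.04e-10) and E2f1 2343, 2523 and 2973 (0.64 ± 0.07, adjusted p = 8.77e-08). For both E2F genes the treated libraries were the highest of all 12. Both inhibitors among the members fell: Cdkn2c to 1101, 1083 and 957 (-0.43 ± 0.06, adjusted p = 2.81e-06) and Cdkn1b to 3549.9, 3175 and 3271 (-0.21 ± 0.06). Cdkn1a, an inhibitor gene outside the members, rose (0.98). Cdkn1b was no longer called when Actr3 KO replicate 1 was left out (-0.15, adjusted p = 0.0573). Cdk6 rose (0.39 ± 0.07), and Cdk2, Cdk4 and Ccnd3 were not called (0.10 ± 0.07, -0.10 ± 0.06 and 0.05 ± 0.06). Foxm1 fell (-0.15 ± 0.05), and Mybl2, with 2809, 2781 and 2859.9, fell by 0.11 (adjusted p = 0.0437). The Mybl2 call was lost without each library of the comparison in turn except ciliobrevin D replicate 3 (adjusted p = 0.0597 to 0.128). With chromosome medians removed neither Foxm1 nor Mybl2 was called.

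The 9 mitosis and G2 members that fell did so by 0.19 to 0.50 on the log2 scale, and the kinase genes Aurka (0.12 ± 0.06) and Bub1 (0.07 ± 0.06) were not called. Plk1, the polo-like kinase of mitotic entry, fell by 0.50 (SE 0.08, adjusted p = 8.31e-06), from 2600.0, 2778 and 2621 to 2066, 2008 and 1602. Cenpe fell to 6722, 6958 and 6453 (-0.47 ± 0.07), Bub1b to 3691, 3765 and 3346 (-0.37 ± 0.06, adjusted p = 6.57e-06) and Ccnb2 to 1359.8, 1553 and 1344 (-0.30 ± 0.06). Kif20a (-0.35 ± 0.06), Cdc20 (-0.29 ± 0.06), Aurkb (-0.25 ± 0.06) and Cenpf (-0.26 ± 0.09) fell as well, with Cenpf at 6533, 6433 and 6045. Mki67 had 25090.2, 25366 and 23708 (-0.19 ± 0.08, adjusted p = 0.0485), a call that ended when Actr3 KO replicate 3 (-0.10, adjusted p = 0.302) was left out, and likewise for each ciliobrevin D library (adjusted p = 0.0631 to 0.134). Cenpf was not called either when Actr3 KO replicate 3 was left out (-0.18, adjusted p = 0.0838).

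The mitosis and G2 members that rose were Ccna2, Top2a and Kif11. Cyclin A2 (Ccna2), which acts in S phase as well as in G2, rose by 0.23. Top2a had 22018, 23471 and 22036 (0.21 ± 0.06, adjusted p = 0.00471) and Kif11 8594, 9262 and 9211 (0.15 ± 0.05, adjusted p = 0.0174). Kif11 was not called without Actr3 KO replicate 2 or without ciliobrevin D replicate 2 (0.13 each, adjusted p = 0.0728 and 0.071). Cdk1 (4384, 4366 and 4055, 0.01 ± 0.06, 95% interval -0.11 to 0.13) and Ube2c (1446, 1449 and 1328, -0.12 ± 0.07, -0.25 to 0.02) were not called. Ube2c was called lower without Actr3 KO replicate 3 (-0.20, adjusted p = 0.0116).

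The split between replication and mitosis was also seen in fits that change the trends named above. Length did not move with this comparison over all genes (rho 0.02), and with the length trend removed 12 replication members rose and none fell, while 4 mitosis and G2 members rose and 10 fell. With chromosome medians removed the counts were 11 and 0, and 4 and 8. Quantile normalization gave 2 replication members lower and no mitosis or G2 member higher.

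**Figure D4:**
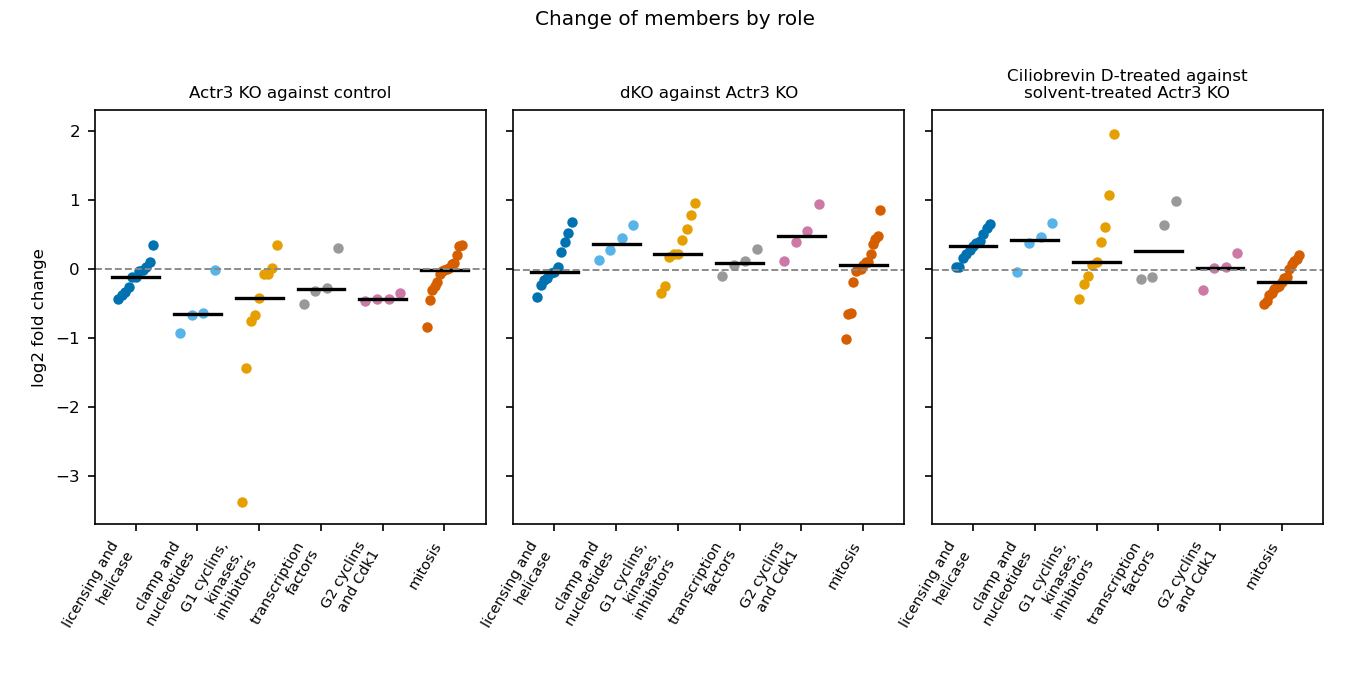
Log2 fold changes of the 47 tested members by role (points, 1 per gene, sorted within a role) in 3 comparisons; black bars are role medians and the dashed line the median of all genes tested. With ciliobrevin D the licensing and helicase median is 0.33 and the mitosis median -0.19, whereas in dKO the median of the A and B cyclins and Cdk1 is 0.48.

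Both dKO and the treated Actr3 KO line were also set against control. In dKO 11 members were higher (23.4%) and 17 lower (36.2%) than in control (backgrounds 32.0% and 35.1%, 67.1% of all genes called). The share that was lower was near that of all genes. With quantile normalization 22 members were higher. Ccnd1 (-2.43), Ccne1 (-1.78), Ccne2 (-1.01), Cenpe (-0.67) and Rrm2 (-0.65) were the lowest, and Cdkn2c (0.77) and Mybl2 (0.60) the highest. Removing chromosome medians left no mitosis member, Cenpe included, lower than -0.34. Tyms (0.00, 95% interval -0.10 to 0.11), Ube2c (0.02, -0.12 to 0.15) and Ccnb1 (-0.04, -0.16 to 0.08) were not called. In the treated Actr3 KO line 12 members were higher (25.5%) and 23 lower (48.9%) than in control (backgrounds 33.0% and 32.0%, 65.1% of all genes called). Of its replication members 7 were higher and 4 lower, and of its mitosis and G2 members 2 were higher and 13 lower. Mcm10 (1.00), Mcm3 (0.55) and E2f2 (0.49) were the highest, and Ccnd1 (-1.43), Ube2c (-0.96), Plk1 (-0.80) and Ccnb2 (-0.65) the lowest. Pcna was at -0.01 (95% interval -0.14 to 0.12) and Ccne2 at -0.15 (-0.29 to -0.00), neither called. Both comparisons share the control libraries.

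**Figure D5:**
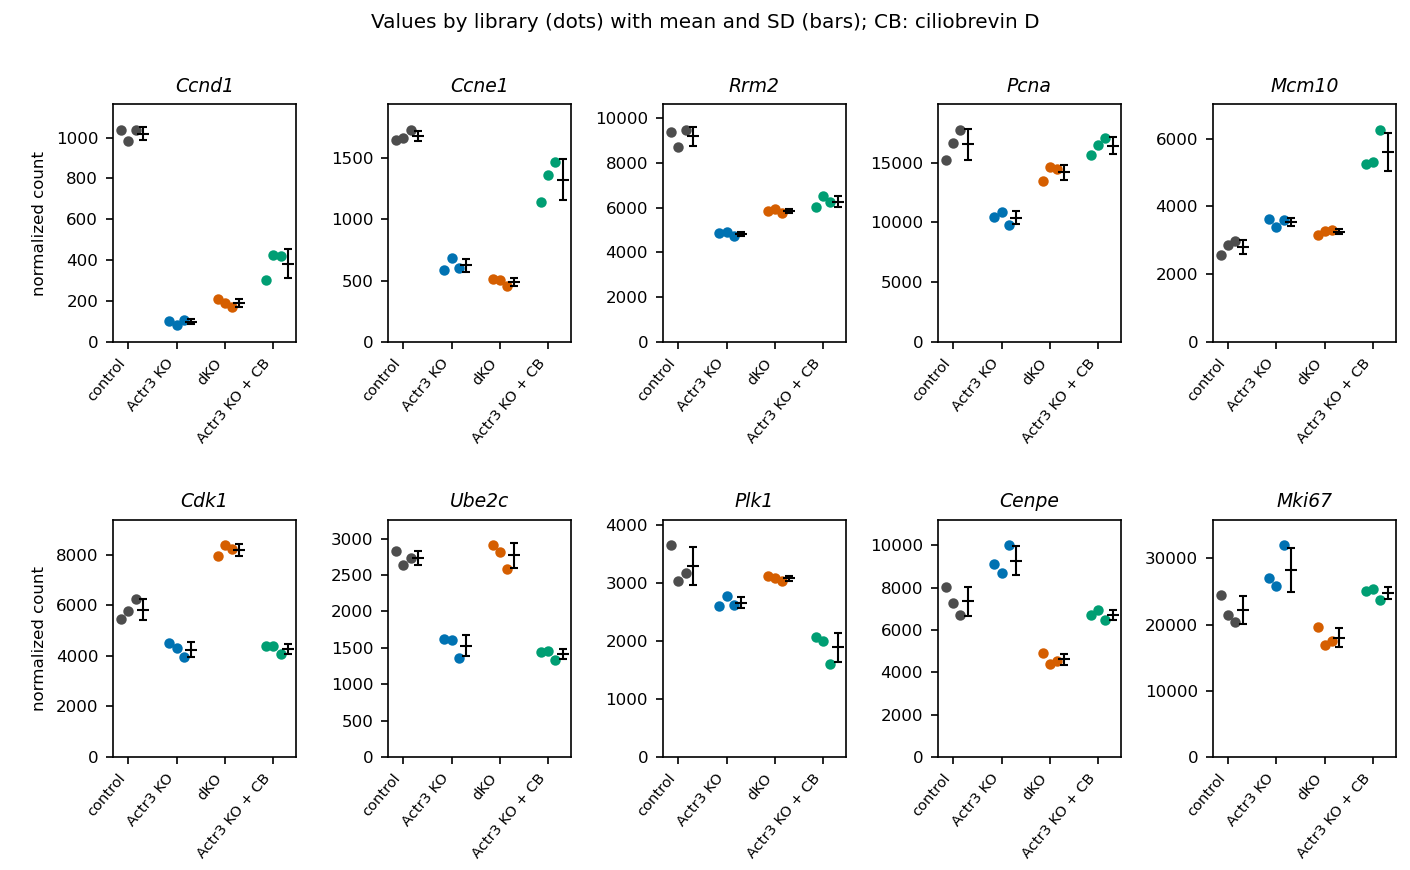
Normalized counts of 10 members in each library (dots) with the group mean and SD (bars) beside them; every vertical axis starts at 0. Ccnd1 has 983 to 1038 in control and 82.8 to 107 in Actr3 KO, Cdk1 and Ube2c are highest in dKO or control and low in both Actr3 KO groups, and Mcm10 is highest with ciliobrevin D.

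Other genes of the same pathways, in 4 lists of 123 genes in all, were counted in the same fits. Of 43 further replication genes, 11 rose (25.6%) and 21 fell (48.8%) in Actr3 KO against control, 22 rose (51.2%) and 9 fell (20.9%) in dKO against Actr3 KO, and 20 rose (46.5%) and 4 fell (9.30%) with ciliobrevin D. The shares of all genes, which apply to the 3 other lists as well, were 34.4% higher and 35.4% lower in Actr3 KO, 32.5% and 33.2% in dKO, and 32.7% and 32.9% with ciliobrevin D. In Actr3 KO, Rpa3, a subunit of the single-strand binding protein RPA, fell by 1.01 and Dut, the dUTPase, by 0.83. In dKO, Rfc5 (0.84 ± 0.05), Orc5 (0.72 ± 0.06) and Gmnn (0.70 ± 0.06), which encode a clamp loader subunit, an origin recognition subunit and the CDT1 inhibitor geminin, rose. Removing chromosome medians left 22 of the 43 genes higher in dKO and 8 lower. The largest rise was then 0.61, and 1 gene rather than 6 rose by 1.5-fold or more. With ciliobrevin D, Dbf4, the activator of the CDC7 kinase that fires origins, rose by 0.99 and Orc6 by 0.86.

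Of 46 further mitosis genes, 13 rose (28.3%, against 34.4% of all genes) and 19 fell (41.3%, against 35.4%) in Actr3 KO. In dKO against Actr3 KO 19 rose (41.3%, against 32.5%) and 9 fell (19.6%, against 33.2%), and with ciliobrevin D 14 rose (30.4%, against 32.7%) and 22 fell (47.8%, against 32.9%). Cks1b (-1.03 ± 0.06), the checkpoint gene Mad2l1 (-0.96 ± 0.05) and Cks2 (-0.77 ± 0.07) fell in Actr3 KO, and Cks2 (0.71 ± 0.07) and the centromeric histone gene Cenpa (0.74 ± 0.06) rose in dKO. The largest rise of this list in dKO was 0.61 with chromosome medians removed. Aspm, a spindle pole gene, was at 4518 ± 291 in control, 7102 ± 726 in Actr3 KO, 3515 ± 74.5 after treatment and 3340.4 ± 317 in dKO. Its 3 Actr3 KO libraries were the highest of all 12. The largest rise of this list in Actr3 KO was 0.65, and 0.48 with the length trend removed. With ciliobrevin D the condensin gene Smc4 rose from 16241 ± 606 to 32813 ± 4352 and Plk4, the kinase of centriole duplication, by 0.71, against the direction of most called genes of this list.

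Of 21 CDK inhibitors, RB and E2F family members and DREAM subunits, 4 rose (19.0%, against 34.4% of all genes) and 15 fell (71.4%, against 35.4%) in Actr3 KO. In dKO against Actr3 KO 8 rose (38.1%, against 32.5%) and 5 fell (23.8%, against 33.2%), and with ciliobrevin D 12 rose (57.1%, against 32.7%) and 5 fell (23.8%, against 32.9%). Cdkn1c, which encodes the inhibitor p57KIP2, had 121, 134 and 134 in control, 1.99, 5.18 and 0.957 in Actr3 KO, 3.61, 12.3 and 1.11 after treatment and 0 in each dKO library. Cdkn1a, which encodes p21, had 8925 ± 397 in control, 5673 ± 358 in Actr3 KO, 11186 ± 865 after treatment and 6923 ± 341 in dKO; with ciliobrevin D it rose by 0.98. Rbl2, which encodes the DREAM pocket protein p130, rose in Actr3 KO (0.69 ± 0.07) and fell with ciliobrevin D (-0.67 ± 0.07). The E2F partner gene Tfdp1 fell in Actr3 KO (-0.77 ± 0.05). Cdkn2a, the p16 and p19ARF locus, rose in dKO (0.80 ± 0.06) and E2f6 fell (-0.73 ± 0.09). The MuvB genes Lin52 (1.07 ± 0.10) and Lin54 (0.95 ± 0.05) rose with ciliobrevin D.

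Of 13 checkpoint and ubiquitin ligase genes, 4 rose and 4 fell in Actr3 KO (30.8% each, against 34.4% and 35.4% of all genes), shares near those of all genes. In dKO against Actr3 KO 5 rose and 5 fell (38.5% each, against 32.5% and 33.2%), and with ciliobrevin D 4 rose (30.8%, against 32.7%) and 3 fell (23.1%, against 32.9%). The DNA damage kinase genes Atm (0.62 ± 0.07) and Atr (0.59 ± 0.08) rose in Actr3 KO and Skp2, the F-box gene whose product marks p27 for degradation, fell (-0.50 ± 0.06). When the length trend was removed, the largest rise of this list in Actr3 KO was 0.47, below 1.5-fold. In dKO, Fzr1 (0.61 ± 0.05) and Chek2 (0.55 ± 0.06) rose and Fbxw7, the F-box gene whose product marks cyclin E, fell (-0.74 ± 0.06). Once chromosome medians were removed, all changes of this list in dKO lay between -0.43 and 0.41, and none reached 1.5-fold. With ciliobrevin D, Wee1, the inhibitory kinase of CDK1, rose (0.48 ± 0.05) and Chek2 (-0.41 ± 0.06) and Atm (-0.33 ± 0.07) fell.

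Exons of 14 members overlap another gene in the GENCODE annotation, among them Ccnd1, Ccne2, Cdk4, Cdk6, Cdc20, Kif20a and Ube2c. Reads from such overlaps could be split or shared by the counting, so the levels of these members are less certain than those of Ccne1, Pcna, Rrm2, Mcm10, Cdk1, Plk1 and Cenpe.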

How the data were processed

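The single deposited table holds 1 column per library of normalized featureCounts counts, per the file headers, and the deposited signal behaves as counts divided by 1 size factor a library. The submitters' processing notes name DESeq2 2.11.40.7, featureCounts 2.0.1, HISAT2 2.2.1 and fastp 0.23.2, and mm10 and GRCm38, without roles or options. The values of each column were whole multiples of 1 read, and 100% came out as whole reads within 0.01. Genes with at least 10 normalized counts in 3 or more libraries (13939) were fitted on log2(value + 1) with limma 3.58.1 (trend, R 4.3.3), all 12 libraries in 1 fit, with Benjamini-Hochberg adjustment over all genes tested. The 1.5-fold counts add a size threshold to the adjusted p. edgeR 4.0.16 and DESeq2 1.42.0 were run on recovered reads as alternatives. The code was tested on simulated data. The members and lists were chosen with earlier results of these data known. Values of every library are given for the 2 called members of each role group with the largest change in any of the first 3 comparisons and for members called against most of their role group; of each other list, up to 3 called genes per comparison with the largest change are named, with Actr3 and Ift88. One gene that this rule names is not reported here. Values of Plk1, and of Cdkn1a, Smc4 and Rbl2 beyond their named comparison, were added after they were seen.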

Additional observations from a re-analysis of the deposited data

How the results depend on the processing

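Over 2160 alternatives of single members, 34 gained a call, 59 lost one and 12 reversed direction with a call in either fit. The remaining 2055 kept their side of the threshold. Among these, values called in neither fit could change direction, as Mcm7 did in Actr3 KO against control with chromosome medians removed (0.12). Quantile normalization gave, in Actr3 KO against control, 12 members higher, 5 of them replication and 5 mitosis or G2; with ciliobrevin D, 2 replication members lower and 0 mitosis or G2 members higher; and 22 members higher in dKO against control. The length trend removed left 1 mitosis or G2 member higher in Actr3 KO. Replication members higher in Actr3 KO numbered 2 with DESeq2 and 1 to 2 leaving out a library (2 without Actr3 KO replicate 1). Chromosome medians removed left 0 replication members lower in dKO against Actr3 KO.

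At 1.5-fold or more, Actr3 KO against control gave 4242 genes, 0 members higher and 8 lower (replication 0 and 3, mitosis and G2 0 and 1). dKO against Actr3 KO gave 3561, 7 and 3 (replication 2 and 0, mitosis and G2 2 higher). Ciliobrevin D gave 3402, 8 and 0 (replication 3 higher, mitosis and G2 0 and 0). dKO against control gave 3766, 2 and 5, and treated Actr3 KO against control 3392, 1 and 5.

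The reversed values were Mcm3 0.0854, Mcm4 0.0296 and Mcm6 0.00615 (dKO against Actr3 KO, chromosome medians removed); Cdk1 -0.18 and Kif11 -0.0546 (ciliobrevin D, quantile); Mcm3 0.12, Mcm6 0.10, Pcna 0.0605 and Top2a 0.24 (dKO against control, quantile) and Mcm6 0.0919 (chromosome); and, in treated Actr3 KO against control, Cdkn1b 0.27 (chromosome) and Pcna 0.18 (length). The cause was not tested. With the replicate block, which drops the unnumbered control library, 9080 genes and 5 members higher and 24 lower were called in Actr3 KO, 9158 genes in dKO against Actr3 KO with 24 and 9, and 9118 with ciliobrevin D with 21 and 12. Replicate numbers did not pair libraries: same-number correlations of deviations from group means lay between -0.04 and 0.07.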
